A study of Mus musculus with 2 samples.

Results

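The genes described here encode acute phase proteins, plasma proteins whose synthesis changes during inflammation. They are the rows of the deposited kidney table with the gene symbols Fga, Fgb, Fgg, Hp, Hpx, Saa1, Saa2, Saa3, Orm1 or Lbp. Of these 10 genes, 4 had a row among the 20002 rows of the table: Fga, Fgg, Hp and Lbp. The other 6, Fgb, Hpx, Saa1, Saa2, Saa3 and Orm1, are not analysed here.

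The study examined kidney injury after loss of Regnase-2, an RNase that degrades mRNA and is encoded by Zc3h12b. RNA-seq was analysed for 2 kidney libraries, 1 from control mice and 1 from mice called Reg-2 CKO. The CKO label stands for a proximal tubule-specific conditional knockout, but the methods describe a knockdown, in which C57BL/6J mice received AAV9 with an shRNA against Regnase-2 through the tail vein at 11 weeks of age. No Cre line or tubule promoter is described. The control mice received AAV9 that is called an empty vector in 1 place and control shRNA in another. Tissue was taken at 14 weeks by the sequencing methods and at 16 weeks by the injection methods. The labels name whole kidneys, the methods a left kidney, and whether a library held 1 mouse or a pool is not given in the sources used here. The labels name no other treatment in either group. With 1 library in each group, no difference below has a replicate check, and intervals cover counting error only.

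The acute phase response is a programme best known from the liver, in which cytokines of the IL-6 and IL-1 families act on hepatocytes through STAT3, C/EBP and NF-kB factors. Fibrinogen, built from alpha, beta and gamma chains encoded by Fga, Fgb and Fgg, is cut by thrombin to form fibrin. Haptoglobin, encoded by Hp, binds free haemoglobin, and the LPS-binding protein encoded by Lbp hands bacterial lipopolysaccharide to CD14. Epithelial cells outside the liver, those of the injured kidney tubule among them, can also express some of these genes.

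The deposited values were whole numbers whose lowest value was 35 in the control column and 51 in the CKO column, and they were taken as reads plus a constant. Subtraction of 34 and 50 left 38851231 control reads against 43588721 in the library labelled CKO, and every row then held at least 1 read in both libraries. That the remainder counts reads is an inference from these whole numbers, on which all intervals rest. A factor of 0.667, the median gene ratio of control to CKO reads, scaled the CKO column. Log2 ratios of CKO over control were computed with a pseudocount of 1, folds and their 95% Clopper-Pearson intervals without one. Zc3h12b, the gene targeted by the shRNA, had 47 control reads against 59 in the library labelled CKO. Its fold was 0.837, with an interval of 0.561 to 1.25, so a difference was not detectable at this depth, and its log2 ratio changed sign from -0.25 to 0.16 with equal library totals and to 0.42 with the values as deposited. In these 2 libraries the reads of the target gene therefore do not check the label, and the second library is called the library labelled CKO throughout. The study reports lower Regnase-2 by immunofluorescence in the proximal tubules of its CKO mice, a protein measure that is not used here. Kidney identity was plain in both libraries: Kap, an abundant proximal tubule transcript, had 987520 and 104163 reads, and Umod, the uromodulin gene of the thick ascending limb, had 90047 and 187056.

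Fgg and Fga lie in the same direction on chromosome 3 of GRCm38, the build of the submitters' mm10 alignment. In the GENCODE M21 annotation Fgg runs from 83007724 to 83015049 and Fga from 83026076 to 83033627 on the plus strand, with 11026 bases between them. Lbp lies on the plus strand of chromosome 2 from 158306493 to 158332852, and Hp on the minus strand of chromosome 8 from 109575128 to 109579172. The RefSeq promoter table for GRCm38.p6 held entries for 2 of the 4 genes, Fga and Fgg, whose upstream bases are printed because these chains form 1 protein and their reads differed between the libraries to an unequal extent. The Fgg window, chr3:83007474-83007723, holds the 250 bases before the RefSeq start. The Fga window, chr3:83025903-83026075, holds 173 bases and stops before the first exon of the GENCODE annotation, which starts upstream of the RefSeq one. Capitals mark motif matches, and both windows read 5′ to 3′ on the plus strand.
Fga upstream: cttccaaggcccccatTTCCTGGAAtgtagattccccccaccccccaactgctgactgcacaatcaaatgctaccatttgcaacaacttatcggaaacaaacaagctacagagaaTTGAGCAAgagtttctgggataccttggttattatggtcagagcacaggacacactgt
Fgg upstream: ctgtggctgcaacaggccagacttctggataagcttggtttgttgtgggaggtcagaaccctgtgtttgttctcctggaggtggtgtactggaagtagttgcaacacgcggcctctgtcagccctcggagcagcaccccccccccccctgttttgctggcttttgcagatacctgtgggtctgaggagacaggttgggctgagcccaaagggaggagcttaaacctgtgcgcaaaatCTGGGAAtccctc

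Both strands were searched for TTCNNNGAA (a STAT motif), CTGGGAA (an IL-6 response element), TTGCNNAA (a C/EBP motif) and the NF-kB motif, a set chosen after the sequences had been seen. The STAT motif and the IL-6 response element both end in GAA, so a match of one can overlap a match of the other, which did not happen here. The Fga window held the STAT match TTCCTGGAA from 83025919 to 83025927 and the C/EBP match TTGAGCAA, which reads TTGCTCAA on the minus strand, from 83026018 to 83026025. Windows of the same 173 bases in all 32851 RefSeq promoters held the STAT motif in 5.07% and the C/EBP motif in 7.13%. The Fgg window held CTGGGAA from 83007711 to 83007717, which ends 7 bases before the start. Among all promoters, 9.10% of the 250-base windows held this motif. Over 250 bases the STAT motif was held by 7.02%, the C/EBP motif by 9.56% and the NF-kB motif by 5.0%, and over 173 bases the IL-6 response element was held by 6.29% and the NF-kB motif by 3.34%. A match describes these letters and was not measured as a bound site.

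Fga and Fgg were both higher in the library labelled CKO, and the gamma chain differed far more than the alpha chain. Fgg (gene ID 99571), the gamma chain, had 51 control reads against 560 in the library labelled CKO. Scaled by the median gene ratio, it was 7.32-fold higher, with an interval of 5.49 to 9.95, and the log2 ratio was 2.85. Fga (gene ID 14161), the alpha chain, had 943 and 2028 reads. Its fold was 1.43, with an interval of 1.33 to 1.55, and its log2 ratio was 0.52. The intervals of the 2 folds did not overlap. Over the 2 chains the median log2 ratio was 1.68, a midpoint that neither chain was near.

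The ratio of the chains inside a library needs no scaling between libraries, but it rests on the subtracted constants. As deposited, before subtraction, Fga was at 977 for control and 2078 for CKO, and Fgg at 85 and 610. With these values the ratio differs less between the libraries than given below. Per kilobase of merged GENCODE exons, Fga reads were 12.9 times Fgg reads in the control library, with a 95% Clopper-Pearson interval of 9.70 to 17.4. In the library labelled CKO they were 2.52 times Fgg reads, with an interval of 2.29 to 2.77. Both libraries therefore held more alpha than gamma chain mRNA per length, and this ratio was 5.11 times smaller in the library labelled CKO. The beta chain completes the protein but is not analysed here. On the opposite strand the lincRNA gene Gm30097 shares 115 of the 2093 exon bases of Fgg. Whether the counting used strand is not given in the sources used here, so reads in this stretch are uncertain.

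Lbp and Hp, which act on bacterial lipid and on haemoglobin, were also higher in the library labelled CKO. Lbp (gene ID 16803) had 72 control reads against 616 in the library labelled CKO. It was 5.70-fold higher, with an interval of 4.46 to 7.39 and a log2 ratio of 2.50. Hp (gene ID 15439) had 7 and 64 reads, the fewest of the 4 genes in each library. Its fold was 6.10, with a wide interval of 2.79 to 15.8, and its log2 ratio was 2.45. Hp had fewer than 10 scaled reads in the control library and was compared only through the library labelled CKO. The intervals of Fgg, Lbp and Hp overlapped, and no order among these 3 folds was read from them.

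Expressed as reads per kilobase of exon per 1000000 reads, Fga was the most abundant of the 4 genes in both libraries, at 8.06 for control and 15.5 for the library labelled CKO. Fgg followed at 0.627 and 6.14, Lbp at 0.384 and 2.93, and Hp at 0.112 and 0.914. These levels are scaled by library totals, so their ratios between libraries are larger than the folds above, which use the factor of 0.667. With these merged exon lengths the order was the same in both libraries. The closest neighbours were Fgg and Lbp: Fgg was 1.63 times Lbp per length in the control library, with an interval of 1.12 to 2.37, and 2.10 times in the library labelled CKO, with an interval of 1.87 to 2.36. Lbp was 3.42 times Hp in the control library (interval 1.58 to 8.81) and 3.20 times in the library labelled CKO (interval 2.47 to 4.21). With the longest transcript as length, chosen after seeing the data, Fgg was 1.03 times Lbp in the control library (interval 0.703 to 1.49) and 1.32 times in the library labelled CKO (interval 1.17 to 1.48), so the control order of these 2 genes depends on the length used. In raw reads the order of Fgg and Lbp was the opposite, because the merged exons of Lbp span 4831 bases and those of Fgg 2093.

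**Figure D1:**
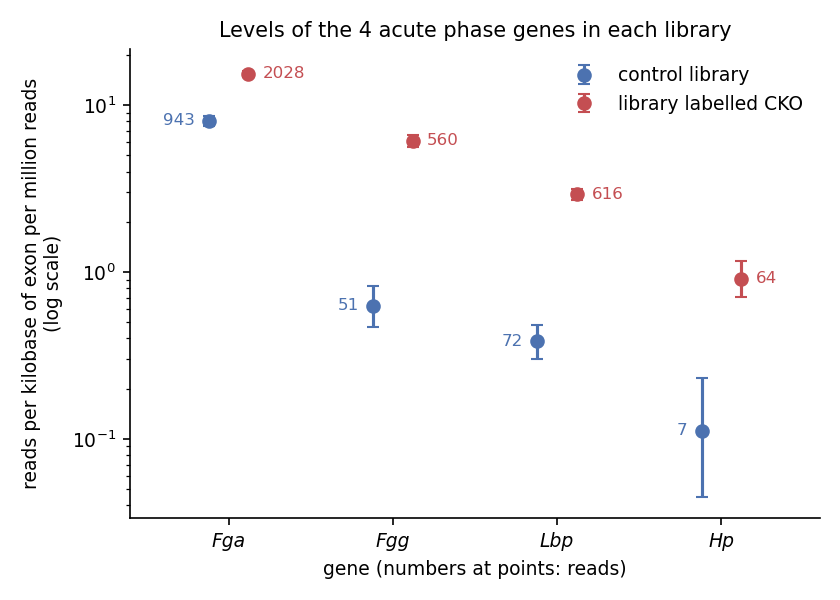
Levels of Fga, Fgg, Lbp and Hp in the control library (blue) and the library labelled CKO (red), as reads per kilobase of exon per 1000000 reads on a log axis. Bars are 95% Clopper-Pearson intervals for counting error, the numbers at the points are reads, and each gene is higher in the library labelled CKO, Fga by the smallest distance.

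Together the 4 genes had 1073 control reads against 3268 in the library labelled CKO. Fga supplied 87.9% of them in the control library (interval 85.8 to 89.8) and 62.1% in the library labelled CKO (interval 60.4 to 63.7). Reads of the 4 genes thus came mainly from the alpha chain in the control library and were spread more evenly over Fga, Lbp and Fgg in the other.

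Of the 4 genes, 3 were higher by 2-fold or more in the library labelled CKO and none was 2-fold lower. Fgg, Lbp and Hp were above the 2-fold line, and Fga, at a log2 ratio of 0.52, was below it. The background was 17469 genes that reached 10 scaled reads in either library, of which 2334, or 13.4%, were higher by 2-fold or more and 934, or 5.35%, lower by 2-fold or more. The median log2 ratio was 2.47 over the 4 genes and 0.022 over all genes compared. Because Hp had to be higher to be compared, this count and median describe the 4 genes and support nothing further. By log2 ratio Fgg ranked 227, Lbp 387, Hp 417 and Fga 4133 of the 17469 genes. No order of Fgg, Lbp and Hp was read from these ranks.

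Another scaling shifted the log2 ratios of all genes together. With equal library totals the median of all genes compared was 0.44, 3870 genes were 2-fold higher and 437 lower, and relative to that median Fgg was at 2.82, Lbp at 2.47, Hp at 2.42 and Fga at 0.50. With the values as deposited, with neither subtraction nor scaling, the median was 0.57, 3574 genes were 2-fold higher and 131 lower. Fga then reached a log2 ratio of 1.09 and passed the 2-fold line, while Hp was at 1.45. Relative to the median of 0.57 these were 0.52 for Fga and 0.89 for Hp.

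**Figure D2:**
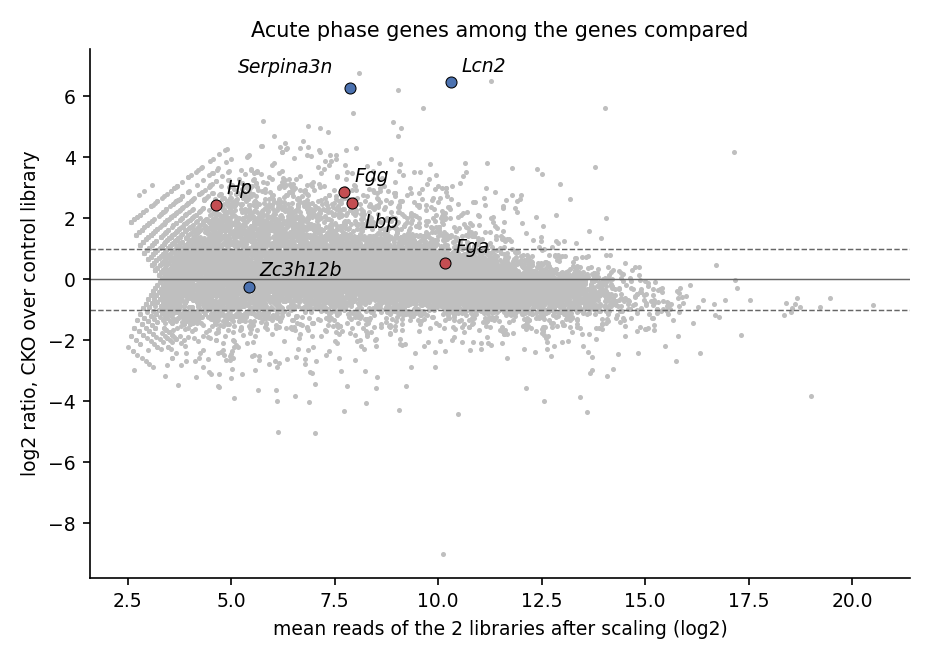
Log2 ratio of the library labelled CKO over the control library against the mean scaled reads (log2) for the 17469 genes compared (grey), with the 4 acute phase genes in red and Lcn2, Serpina3n and Zc3h12b in blue. Dashed lines mark 2-fold; Fgg, Lbp and Hp lie above the upper line and Fga between the lines.

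Among 14388 other genes with at least 100 reads in both libraries together, those nearest to Fgg in log2 ratio were Ch25h, Fcgr3 and Tgfbi. Ch25h, which encodes cholesterol 25-hydroxylase, had 20 and 225 reads. Fcgr3, an Fc receptor gene, had 85 and 926, and Tgfbi, which encodes a matrix protein induced by TGF-beta, had 120 and 1299. Their log2 ratios were 2.85, 2.85 and 2.84, within 0.0067 of Fgg. This likeness rests on 1 ratio between 2 libraries.

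Other positive acute phase proteins, those whose level goes up in inflammation, were listed with 40 genes, of which 29 had a row and were compared. The list was not limited to plasma proteins. In the library labelled CKO 15 were higher by 2-fold or more and none 2-fold lower, with a median log2 ratio of 1.09, beside 13.4% higher, 5.35% lower and a median of 0.022 over all genes compared, the background of each list below as well. For 3 of the 29, Serpina3n among them, the comparison rested on the library labelled CKO alone, so these had to be higher to be compared. Of the 26 that reached the minimum in both libraries, 12 were higher by 2-fold or more, with a median log2 ratio of 0.95. Over all genes the same limit gave 1730 of 16143 and a median of 0.0066. Lcn2, the gene of neutrophil gelatinase-associated lipocalin, which the study singled out in these libraries, had 28 control reads against 3797 in the library labelled CKO, which gave a log2 ratio of 6.45. Serpina3n, a protease inhibitor gene, had 5 and 691 reads, at a log2 ratio of 6.27, with an interval of its fold from 39.3 to 285. This log2 ratio fell to 4.97 with a pseudocount of 10 and to 4.21 in the deposited values. Reads of Serpina3n may be shared with near-identical copies of its family. Both had higher ratios than Fgg in every setting. At the other end were Fth1, the ferritin heavy chain gene, with 131938 and 113587 reads, at a log2 ratio of -0.80, and Mbl1, a mannose-binding lectin gene, with 149 and 129 reads, at a log2 ratio of -0.79. Fth1 was lower also with equal library totals, at -0.38, and with the values as deposited, at -0.22. Mbl1 was at -0.37 with equal totals and almost without a difference, at -0.03, with the values as deposited.

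Negative acute phase proteins, whose plasma level goes down in inflammation, were compared for 8 of 12 listed genes, and 2 were higher by 2-fold or more and 2 lower by 2-fold or more, against 3 and 1 in the deposited values. For 1 of the 8 the comparison rested on the control library alone. The median log2 ratio was -0.39, and it was 0.01 with equal library totals and 0.36 with the values as deposited. Ttr, the transthyretin gene, had 2889 control reads against 860 in the library labelled CKO, which gave a log2 ratio of -2.33. Serpinc1, the antithrombin gene, had 196 and 80 reads, at a log2 ratio of -1.86, and was no longer 2-fold lower in the deposited values, at -0.82. Trf, which encodes transferrin, went the other way with 377 and 1935 reads, at a log2 ratio of 1.77. So did Fetub, the fetuin-B gene, with 25 and 99 reads, at a log2 ratio of 1.37. The list therefore had no common direction.

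The pathway that induces acute phase genes was compared for 27 of 31 listed genes. In the library labelled CKO 10 were higher by 2-fold or more and none 2-fold lower, and the median log2 ratio was 0.41. Lif, an IL-6 family cytokine gene, had 21 control reads against 477 in the library labelled CKO, which gave a log2 ratio of 3.86. Socs3, a feedback inhibitor gene of STAT3 signalling, had 84 and 1479 reads, at a log2 ratio of 3.54. The lowest were Hnf4a, a transcription factor gene of liver and proximal tubule, with 38137 and 28756 reads, and Il22ra1, a receptor gene for IL-22, with 452 and 352. Their log2 ratios were -0.99 and -0.94. Hnf4a passed 2-fold, at -1.01, with a floor equal to the column minimum. For 1 of the 27 genes the comparison rested on the library labelled CKO alone, and 9 of the 26 others were higher by 2-fold or more. Il6, Osm, Il1a and Tnf are not analysed here, so the ligand side of this pathway was covered only in part.

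Fibrin formation and breakdown was compared for 21 of 25 listed genes. In the library labelled CKO 10 were higher by 2-fold or more and 1 lower by 2-fold or more, with a median log2 ratio of 0.88. Of the 21, 1 was compared only through the library labelled CKO and 1 only through the control library. Of the 19 that reached the minimum in both, 9 were higher by 2-fold or more. Itgam, a subunit gene of the leukocyte integrin that binds fibrinogen, had 54 control reads against 682 in the library labelled CKO, at a log2 ratio of 3.05. Serpinf2, which encodes the plasmin inhibitor alpha 2-antiplasmin, was the gene lower by 2-fold or more, with 14414 and 5332 reads, at a log2 ratio of -2.02. F13b, the carrier subunit gene of factor XIII, had 4963 and 4381 reads, at a log2 ratio of -0.76.

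Haemoglobin and haem handling, the setting in which haptoglobin acts, showed no 2-fold difference in 14 of 15 listed genes that were compared. Of the 14, 5 are the whole red cell list given further below, and Fth1 and Ftl1 are also on the list of positive acute phase proteins. The median log2 ratio was -0.18, and it turned to 0.24 with equal library totals and to 0.41 with the values as deposited. Lrp1, a receptor gene for haem bound to haemopexin, had 2058 control reads against 5663 in the library labelled CKO, and Slc40a1, the iron exporter gene, had 1676 and 3890. Their log2 ratios were 0.88 and 0.63, and both passed 2-fold under equal totals and in the deposited values. Fth1 was the lowest gene, and Blvrb, a biliverdin reductase gene, was next with 853 and 924 reads, at a log2 ratio of -0.47, which turned positive at 0.13 with the values as deposited. Hp, at 2.45, was compared only through the library labelled CKO, so no rank of Hp against this list was read. With the values as deposited Hp and Lrp1 were both at 1.45. Cd163, the haptoglobin-haemoglobin receptor gene, is not analysed here.

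Lipopolysaccharide recognition, the setting of Lbp, was compared for 12 of 13 listed genes, of which 7 were higher by 2-fold or more in the library labelled CKO and none 2-fold lower. The median log2 ratio was 1.09. Lrg1, at a log2 ratio of 1.73, is counted here and also on the list of other positive acute phase proteins. Cd14, whose product takes lipopolysaccharide from the Lbp protein, had 161 control reads against 1449 in the library labelled CKO, which gave a log2 ratio of 2.58 beside 2.50 for Lbp. Tlr2, a receptor gene for bacterial lipoproteins, had 108 and 849 reads, at a log2 ratio of 2.38. The adaptor gene Traf6 was at 0.03, with 1174 and 1798 reads. The kinase gene Irak1 had 2965 and 3527 reads, at a log2 ratio of -0.33, which turned to 0.08 with equal library totals and to 0.25 with the values as deposited.

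Genes that handle serum amyloid A and orosomucoid were compared although Saa1, Saa2, Saa3 and Orm1 themselves are not analysed here. Of 12 listed, 9 were compared, 4 were higher by 2-fold or more and 1 lower by 2-fold or more in the library labelled CKO, and the median log2 ratio was 0.75. P2rx7, a receptor gene for extracellular ATP, had 75 control reads against 395 in the library labelled CKO, at a log2 ratio of 1.80. Abca7, a lipid transporter gene, had 668 and 1215 reads and was at 0.28. Cd36, a scavenger receptor gene, had 23264 and 12578 reads, at a log2 ratio of -1.47. In the deposited values 6 genes were 2-fold higher and none lower, with Cd36 at -0.88.

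Hepatocyte markers were covered by 8 of 17 listed genes. None was higher by 2-fold or more and 4 were lower by 2-fold or more in the library labelled CKO, but 1 was higher and 2 were lower under equal totals and also in the deposited values. Of the 8, 2 were compared only through the control library: Apoa1, and Apoa2, which had 17 and 9 reads and is 1 of the 4 lower genes. Summed reads of the 8 were 5664 for control and 2297 for the library labelled CKO, and the median log2 ratio was -0.80, turning to 0.19 with the values as deposited. Ttr had the most reads of them. Serpina1c, an alpha 1-antitrypsin gene with close copies, was the highest, with 90 and 254 reads, at a log2 ratio of 0.90. Apob, the apolipoprotein B gene, was the lowest, with 1921 and 563 reads, at a log2 ratio of -2.35. Alb, the albumin gene, chosen after its values were seen, had 117 and 121 reads, at a log2 ratio of -0.53, turning to 0.18 with the values as deposited. Of these 8 genes, 3 are also on the list of negative acute phase proteins, and Serpina1c is on that of other positive acute phase proteins. The part of liver RNA in the acute phase results was not tested.

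Markers of macrophages, fibroblasts and injured tubules were higher in the library labelled CKO together with Fgg, Lbp and Hp. Of 12 macrophage genes 11 were higher by 2-fold or more, with a median log2 ratio of 2.64 and summed reads of 6637 and 51528. Cd74, the invariant chain gene, led in reads with 2610 and 23956 reads, and the ratios ran from 0.51 for Csf1r, the macrophage growth factor receptor gene, to 3.66 for the lysozyme gene Lyz2. Of 9 fibroblast genes 8 were higher by 2-fold or more, with a median of 1.86 and summed reads of 7076 and 35223. The collagen gene Col3a1 led in reads with 1107 and 9779 reads, and the ratios ran from 0.48 for the receptor gene Pdgfrb to 2.65 for the collagen gene Col1a1. Of 10 injured tubule genes with a row, among 11 listed, 9 were higher by 2-fold or more, with a median of 3.40 and summed reads of 26294 and 502928. Spp1, the osteopontin gene, supplied most of these with 15360 and 412220 reads, and the ratios ran from 0.45 for the keratin gene Krt8 to 6.45 for Lcn2. Itgam is on the macrophage list as well as the fibrin list, and Lcn2 and Spp1 are on the injured tubule list as well as among the positive acute phase proteins. The part of these cell types in the acute phase results was not tested. In whole kidney, more cells of a type and more RNA per cell cannot be told apart.

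Proximal tubule markers were mostly lower. Of 12 genes, 6 were lower by 2-fold or more and none 2-fold higher in the library labelled CKO. Under equal totals 3 were lower, as in the deposited values. Their median log2 ratio was -1.02, and -0.60 and -0.43 in these 2 settings, beside summed reads of 1675498 and 618914, of which Kap alone supplied 987520 and 104163. The ratios ran from -3.83 for Kap to 0.41 for Slc5a12, a lactate transporter gene with 25259 and 50338 reads. The list of other nephron segments, of whose 10 genes 2 are endothelial markers, showed no 2-fold difference, with a median of -0.10, turning to 0.32 with equal totals and to 0.48 with values as deposited, and summed reads of 153305 and 278343. Umod had the most reads, and the water channel gene Aqp2 was the highest at 0.79. Aqp2 passed 2-fold with equal totals, at 1.21, and Aqp2 and Umod did with the values as deposited, at 1.37 and 1.05. The part of this lower proximal tubule signal in the acute phase results was not tested.

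Neutrophil, adipocyte and red cell markers were covered by shorter lists. Of 10 neutrophil genes 3 had a row, Ly6g and Mpo not among them, with summed reads of 42 and 260 and a median log2 ratio of 1.64. Csf3r, the G-CSF receptor gene, had the most reads and the highest ratio, with 22 and 177 reads, at a log2 ratio of 2.37, and S100a8, compared only through the library labelled CKO, was the lowest with 7 and 19 reads, an interval of its fold from 0.728 to 5.09. Of 10 adipocyte genes 3 had a row, Adipoq not among them, with summed reads of 3751 and 4959 and a median of -0.13, turning to 0.29 with equal totals and to 0.45 with values as deposited. Fabp4, a fatty acid binding protein gene, led in reads with 2962 and 4055 reads and held that median, Pparg was the highest at 0.36, and Lipe was the lowest at -0.50, turning to 0.11 with the values as deposited. The 5 red cell genes had summed reads of 14521 and 21645 and ran from -0.06 for Hba-a2 to 0.09 for Alas2, with a median of -0.01 at Hbb-bs, its 6084 and 9054 reads being the most of the list. With equal library totals Hba-a2 turned to 0.36 and Hbb-bs to 0.41. Globin gene copies are nearly identical, so their single values are uncertain. The part of these cells in the acute phase results was not tested.

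**Figure D3:**
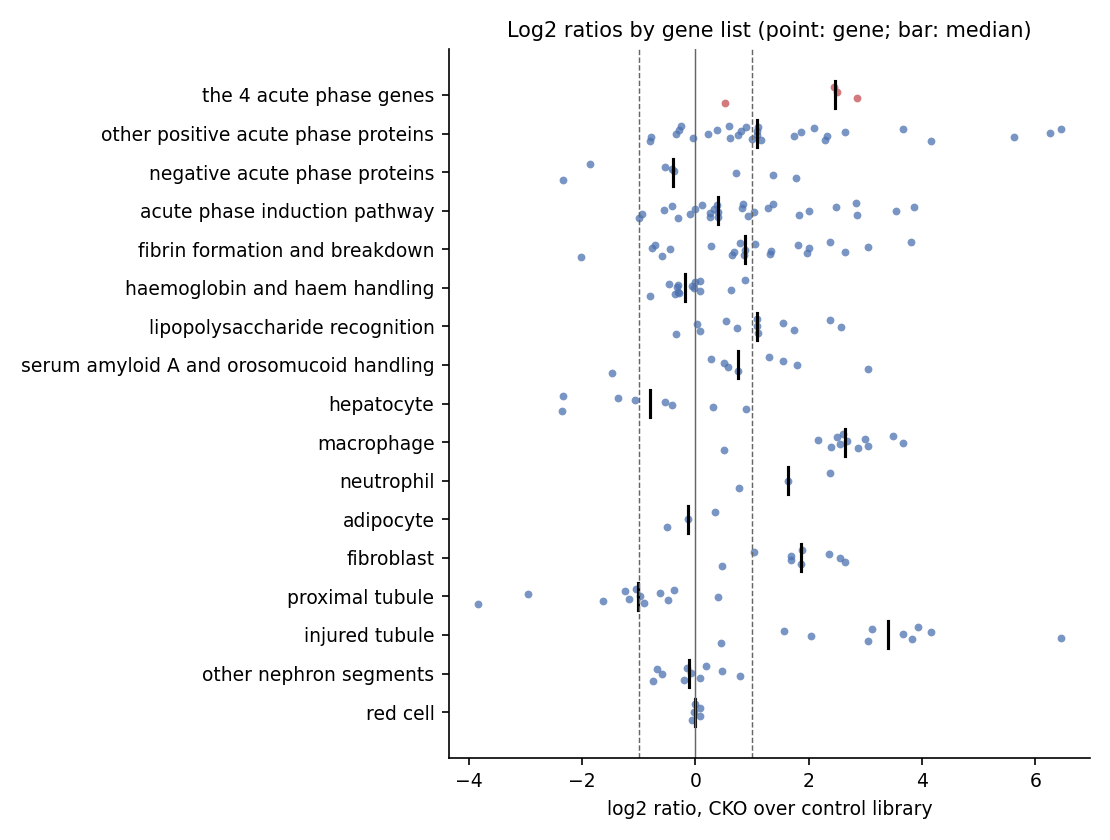
Log2 ratio of the library labelled CKO over the control library (horizontal axis) for each compared gene (point) of the gene lists, with the list median as a black bar and dashed lines at 2-fold. The 4 acute phase genes are in red with a median of 2.47, between the macrophage list at 2.64 and the fibroblast list at 1.86. With the values as deposited their median is 2.05, below the fibroblast list at 2.24. Because Hp had to be higher to be compared, no rank of the 4 genes among the lists was read. The hepatocyte list has a median of -0.80, turning to 0.19 with the values as deposited.

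Across 7 alternative settings of pseudocount, scaling and floor, all 28 log2 ratios of the 4 genes were above 0. These are the same 4 pairs of values under other settings, and Hp had to be higher to be compared. The 28 ratios are therefore no separate checks of direction. Fgg ran from 2.65 to 3.27, Lbp from 2.36 to 2.91, Hp from 1.45 to 2.86 and Fga from 0.50 to 1.09. Hp, with its few control reads, had the widest range.

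**Figure D4:**
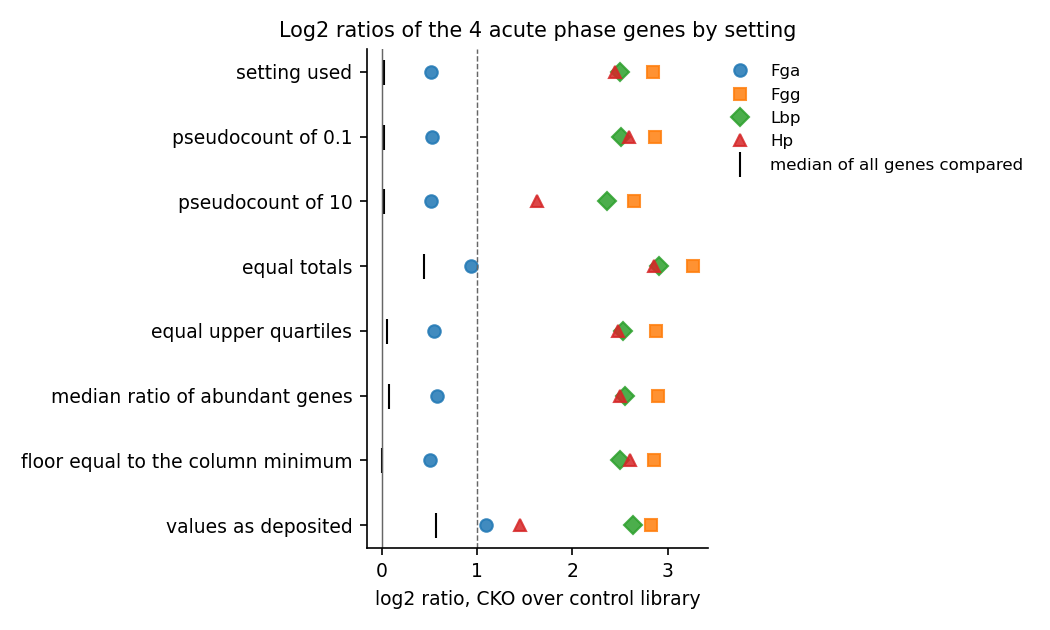
Log2 ratios of Fga, Fgg, Lbp and Hp (horizontal axis, library labelled CKO over control library) under the setting used and 7 alternatives, with the median of all genes compared as a black bar and a dashed line at 2-fold. Fga passes the 2-fold line only with the values as deposited, where the median of all genes is itself at 0.57.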

How the data were processed

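RNA-seq of kidney was compared between 1 control library and 1 library labelled CKO. Libraries were made with a stranded mRNA kit. According to the methods and the submitters' processing notes, the authors used STAR 2.7.3a and the mm10 build for alignment, HTSeq for counting and DESeq2 for normalization. The deposited values follow no usual unit and are a score. From each value the column minimum minus 1 was subtracted (34 for control, 50 for CKO), and CKO values were multiplied by 0.667.

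The log2 ratio used a pseudocount of 1, genes needed at least 10 scaled reads in 1 library, and the threshold was 2-fold. Of 17469 genes compared, 841 passed this minimum only through the library labelled CKO and 485 only through the control library. Intervals are 95% Clopper-Pearson limits of the share of CKO reads in the reads of both libraries, or of the reads of 1 gene among those of a pair. No test between groups was made. Exon lengths were the merged exons of each gene in GENCODE M21.

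The 10 genes, which are the members, and the lists were chosen with earlier results of these data known. Genes were named by a rule: the 10 acute phase genes, Zc3h12b, Lcn2 and Serpina3n, the 2 highest and 2 lowest log2 ratios of each pathway list, the most abundant, highest and lowest gene of each cell type list and its genes with 3 or fewer reads, the genes just above and below 2-fold, and the 3 genes nearest to the leading acute phase gene. Alb was added after its values were seen. Not every gene picked by this rule is described in the text. Alternatives were pseudocounts of 0.1 and 10, no minimum or at least 50 reads, 3 other scalings, a floor equal to the column minimum, the values as deposited, and thresholds of 1.5-fold and 4-fold. The steps were tested on simulated data. Python 3.11.15, numpy 2.4.6, pandas 2.3.3, scipy 1.17.1 and matplotlib 3.10.9 were used.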

Additional observations from a re-analysis of the deposited data

How the results depend on the processing

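Of the 4 acute phase genes, 3 passed the threshold upward under every alternative run except a minimum of 50 reads, which left out Hp and gave 2 of 3 compared genes, and the values as deposited, which gave 4. Their median log2 ratio ran from 1.995 with a pseudocount of 10 to 2.89 with equal totals. The fibrinogen chain median moved from 1.68 to 2.10 with equal totals, as the median of all genes did.

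Genes at least 2-fold higher numbered 2334, against 3870 with equal totals, 3574 with the values as deposited, 3801 at 1.5-fold and 749 at 4-fold. Genes at least 2-fold lower numbered 934, against 617 with a minimum of 50 reads, where fewer genes were compared, 437 with equal totals, 131 with the values as deposited, 2423 at 1.5-fold and 166 at 4-fold. For the scalings the cause was not tested. Of 28 log2 ratios of the 4 acute phase genes under 7 alternatives, 24 stayed within the counting interval and 4 moved beyond it. The same 7 were run on 55 other named genes after seeing the data. Of these 385 values, 277 stayed within the counting interval and 108 moved beyond it. No gene past 2-fold changed sign. With the longest transcript as length, also chosen after seeing the data, the Fga to Fgg ratio was 12.4 for control and 2.44 for the library labelled CKO, that of Fgg to Lbp 1.03 and 1.32, and that of Lbp to Hp 5.48 and 5.13.

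No paired analysis was possible because neither condition was sequenced in more than 1 library. Among the 4 acute phase genes depth limits Hp most, with 7 control reads.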
